A study of Mus musculus with 9 samples.

Results

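Oxidative phosphorylation is carried out in the inner mitochondrial membrane by 4 respiratory complexes, I to IV, and by ATP synthase, complex V. Complexes I to IV pass electrons from NADH and succinate to oxygen and, except for complex II, pump protons across the membrane, and complex V uses the return of the protons to make ATP. Most subunits are encoded in the nucleus and imported, whereas a small number of core subunits of complexes I, III, IV and V are encoded by mitochondrial DNA (mtDNA) and made inside the organelle, so that a working chain needs the products of both genomes. Several subunits of complex IV exist as isoforms with tissue-restricted forms, including forms known from testis, from heart and skeletal muscle, and from cells at low oxygen.

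The genes described here are the subunit genes of these complexes, chosen by symbol: Nduf genes of the a, b, c, s and v series, Sdha to Sdhd, Uqcr genes, Cox4 to Cox8 genes, Atp5 genes and the mt-Nd, mt-Co and mt-Atp genes. Of the 53801 genes in the count table, 95 matched, after 7 symbols marked as pseudogenes were left out. All 95 are annotated as protein-coding in GENCODE vM21 (GRCm38), 83 in the nuclear genome and 12 in mtDNA. They comprise 42 genes of complex I, 4 of complex II, 8 of complex III, 23 of complex IV and 18 of complex V, with Ndufa4 and Ndufa4l2 counted in complex IV, where the NDUFA4 protein is known to reside. For all others, complex and subunit status were taken from the symbol alone. The mtDNA gene of complex III, mt-Cytb, is written differently from the pattern and was not a member. Cyc1, the nuclear gene of cytochrome c1 in complex III, was not matched either.

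RNA-seq was performed on 9 libraries of a cultured mouse spermatogonial stem cell (SSC) line derived from Prmt5 flox/flox; Rosa26-CreERT2 mice, in which 4-hydroxytamoxifen (4OHT) activates a Cre recombinase that deletes Prmt5, the gene of an arginine methyltransferase. Every library came from cells given 1 µM 4OHT, and the groups were 4OHT alone, MU and OE, with 3 libraries each. The labels do not spell out MU and OE, which were read as lentiviral PRMT5 (E444Q), a mutant without enzymatic activity, and PRMT5 (WT), so that every statement on a construct rests on this reading. The comparisons address how the subunit genes differed when each construct was present in the deleted cells. They also address whether the mutant and the wild-type construct differed from each other. No group of these libraries is labelled as carrying an empty lentivirus. Against 4OHT alone, a PRMT5 construct and its viral delivery therefore cannot be told apart. MU and OE were each compared with the same 3 libraries of 4OHT alone, so these comparisons are not independent and are given side by side. The cells are grown on mouse embryonic fibroblast feeders, and cells without 4OHT were not analysed here.

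Prmt5 itself was measured at 30.3 ± 1.92 CPM (counts scaled to the library's total with its TMM factor, a correction for library composition; SD, n = 3) with 4OHT alone, 146 ± 0.957 CPM in MU and 1076 ± 7.61 CPM in OE, so the constructs also differed in the amount of Prmt5 mRNA. Library totals ranged from 78751996 to 365719548 counts, at which 3 counts correspond to 0.00793 to 0.0395 CPM, and all but 2 nuclear subunit genes averaged at least 1 CPM. The SSC label was checked against 17 germ cell markers, which summed to 2489 to 2519 CPM with 4OHT alone, 3262 to 3366 CPM in MU and 3510 to 3549 CPM in OE. Markers of the feeder fibroblasts (15 genes) summed to 12960 to 15170, 7185 to 7242 and 5547 to 5660 CPM, and 12 macrophage markers to 223.8 to 245.4, 1128 to 1161 and 2201 to 2323 CPM in the same order. Of 7 Sertoli cell markers summing to at most 28.7 CPM, Fshr was at 0 in every library, and of 5 Leydig cell markers summing to at most 7.12 CPM, Hsd3b1 was at 0 in every library. The lists did not move as one. Against 4OHT alone, 9 germ cell markers were higher and 7 lower and 9 macrophage markers higher and 3 lower in both MU and OE. Of the feeder markers, 13 were lower and 1 higher in MU and all 15 lower in OE. These sums moved with every comparison against 4OHT alone, and the part of culture makeup in the results below was not tested. In bulk RNA, fewer cells of a type and less RNA per cell cannot be told apart. The sources do not state that the replicate libraries came from separate cultures, so p-values measure the spread between these libraries, which may be technical.

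One library stood apart: the third 4OHT library was below both other 4OHT libraries for 71 of the 81 nuclear genes with at least 1 CPM. The median log2 ratio to the mean of the other 4OHT libraries was -0.578 for genes with an exonic length of up to 1569 bases and -0.308 for longer ones (Spearman's rho with length 0.389 over 81 genes of the same libraries, given as a description). Over 15402 genes of at least 1 CPM the median was 0.0355, and it was -0.224 over the 1630 genes of at most 1569 bases. The shorter subunit genes thus lay lower in this library than genes of that length in general (-0.578 beside -0.224). The longer ones also lay below the median over all genes (-0.308 beside 0.0355), and the reason was not tested. The spread of the nuclear subunit genes was widest with 4OHT alone: their median coefficient of variation was 18% with 4OHT alone, 3.81% in MU and 3.97% in OE.

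**Figure D1:**
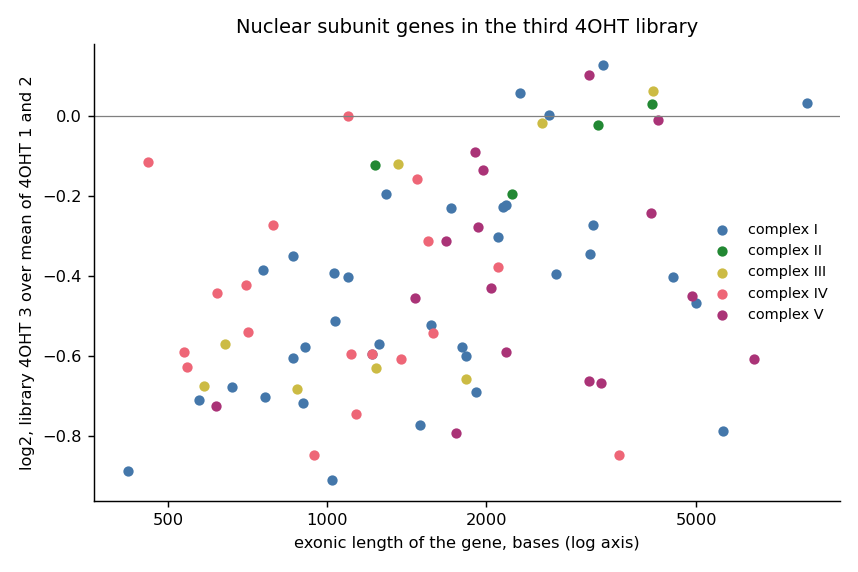
For 81 nuclear subunit genes, the log2 ratio of the third 4OHT library to the mean of the other 4OHT libraries (vertical axis) against the exonic length in bases (horizontal log axis), coloured by complex. Of the genes, 71 lay below both other libraries, with medians of -0.578 for the shorter and -0.308 for the longer genes.

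Summed over the 12 mtDNA genes, the level was 13970 ± 2343 CPM (SD, n = 3) with 4OHT alone, 23200 ± 830 CPM in MU and 24180 ± 938 CPM in OE, a ratio of 1.66 and 1.73 to 4OHT alone. The single libraries were at 16270, 14040 and 11590 CPM with 4OHT alone, between 22310 and 23950 CPM in MU and between 23610 and 25260 CPM in OE, so neither construct group overlapped the 4OHT libraries. The 83 nuclear genes together were at 7241 ± 706, 7620 ± 67.8 and 7550 ± 148 CPM, and the ratios to 4OHT alone were 1.05 and 1.04. The total of the nuclear genes thus differed from 4OHT alone by less than the SD of the 4OHT libraries. These 12 mtDNA genes, without mt-Cytb, made up 1.09% to 1.57% of all counts with 4OHT alone and 2.31% to 2.56% in the other libraries. By complex, the nuclear sums of I and IV differed from 4OHT alone by less than the SD of the 4OHT libraries in both comparisons, that of III by less in MU and slightly more in OE, and those of II and V by more in both: the ratio of MU to 4OHT alone ranged from 0.92 in complex III to 1.11 in complex IV, and that of OE from 0.894 in complex III to 1.09 in complex V.

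**Figure D2:**
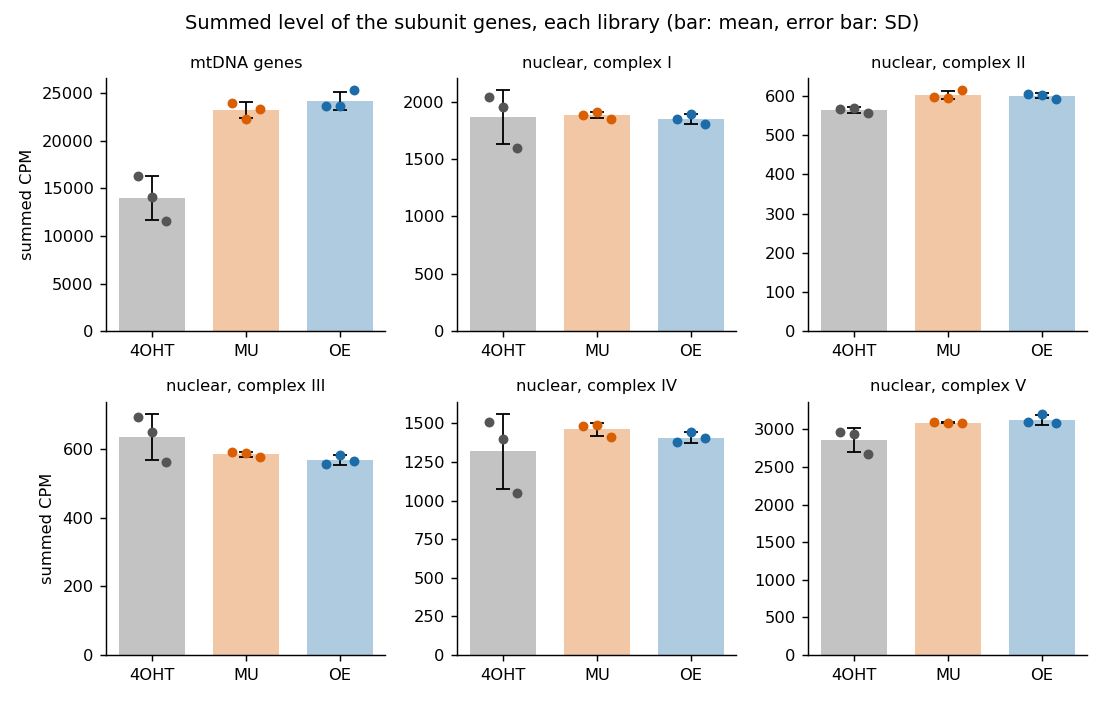
Summed CPM (vertical axis) of the mtDNA genes and of the nuclear genes of each complex in the 4OHT, MU and OE groups; points are the 3 libraries of each group, bars the mean and error bars the SD. The mtDNA sum was 1.66 and 1.73 times that of 4OHT alone in MU and OE, whereas the nuclear sums stayed between 0.894 and 1.11 times.

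The mtDNA genes fell into 2 ranges of level. Per kb of exon and averaged over all 9 libraries, mt-Nd1, mt-Nd2, mt-Nd4, mt-Nd5, mt-Nd6 and mt-Co1 lay between 868.3 and 8360 CPM per kb, while mt-Co2, mt-Co3, mt-Atp6, mt-Atp8, mt-Nd3 and mt-Nd4l lay between 8.61 and 66.4 CPM per kb and together made up 0.715% of the mtDNA sum. The gene mt-Co1 alone, which encodes the catalytic subunit of complex IV, made up 63.2%. The 6 low genes are consecutive among the protein-coding genes of mtDNA, from mt-Co2 at position 7013 to mt-Nd4l ending at 10173. Of these, 5 have a nuclear copy annotated as a pseudogene on chromosome 1 of GRCm38 between 24612407 and 24615565, covering 99% or more of the gene, and the copies themselves had counts. How reads that fit more than 1 place were counted is not stated, so the values of these genes are uncertain. The following 60 bases are shown because they make the likeness visible; bases that differ between a gene and its copy are in capitals, and mt-Co2 and its copy Gm28661 have none in the 681 bases aligned, so the stretch of mt-Co2 stands for both.
mt-Co2: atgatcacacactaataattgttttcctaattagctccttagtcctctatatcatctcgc
mt-Nd3: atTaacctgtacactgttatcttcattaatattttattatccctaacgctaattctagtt
Gm28438: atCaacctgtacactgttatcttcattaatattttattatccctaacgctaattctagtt

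These sequences come from the GENCODE vM21 transcripts, and Gm28438 is the copy of mt-Nd3. In the 5 pairs of gene and copy, the copy held between 20.7% (Gm10925, the copy of mt-Atp6) and 92.2% (Gm28438) of the summed CPM of the pair, depending on the library. The remaining low gene, mt-Atp8, had no annotated copy at these limits (98% identity over 150 bases). Only annotated pseudogene transcripts were searched. The bases of chromosome 1 between the copies of mt-Atp6 (ending at 24614651) and mt-Co2 (from 24614885) were not, so a copy of mt-Atp8 without annotation was not tested. On mtDNA, mt-Atp8 overlaps mt-Atp6, as mt-Nd4l overlaps mt-Nd4 and mt-Nd6 the end of mt-Nd5. Partial copies cover 63.6% of mt-Nd4 and 31.3% of mt-Co1, and these copies were at 13.6 and 25.01 CPM with 4OHT alone, far below the genes themselves.

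Among the 6 mtDNA genes with high levels, 5 rose in both comparisons and mt-Nd1 in MU only, by edgeR's quasi-likelihood test with Benjamini-Hochberg adjustment over the 22452 genes tested. mt-Co1 was at 9822, 8464 and 7195 CPM with 4OHT alone, 15540, 14810 and 15300 CPM in MU and 14480, 14840 and 15800 CPM in OE. All libraries of both constructs exceeded all of 4OHT alone, with log2 fold changes of 0.84 ± 0.0817 (standard error; adjusted p = 8.29e-07) in MU and 0.82 ± 0.0817 (adjusted p = 9.27e-07) in OE. The mtDNA subunits of complex I belong to its membrane arm, through which protons are pumped. mt-Nd4 was at 888.1, 707.1 and 548.1 CPM with 4OHT alone, 1315, 1148 and 1259 CPM in MU and 1608, 1595 and 1700 CPM in OE, and its log2 fold changes were 0.80 ± 0.122 (adjusted p = 6.99e-05) and 1.19 ± 0.123 (adjusted p = 1.39e-06). mt-Nd5 changed by 0.68 and 0.91, mt-Nd2 by 0.44 and 0.84 and mt-Nd6 by 0.99 and 1.21 on the log2 scale, with adjusted p of at most 0.00464. The gene mt-Nd6 lies on the other strand of mtDNA from the rest, and strand was not stated for these counts. For mt-Nd1, at 2301, 2004 and 1602 CPM with 4OHT alone, the groups overlapped: the log2 fold change was 0.29 ± 0.0959 in MU (adjusted p = 0.0196; 0.0646 without the first and 0.063 without the third MU library) and 0.23 ± 0.0959 in OE (adjusted p = 0.0539).

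The 6 low genes gave no common picture. mt-Nd3 was lower in MU (log2 fold change -0.89, adjusted p = 0.000514) and in OE (-0.55, adjusted p = 0.0147), from 4.35, 4.24 and 3.54 CPM with 4OHT alone to 2.01 to 2.34 CPM in MU and 2.37 to 3.46 CPM in OE, and the call in OE was lost without the second 4OHT library (adjusted p = 0.0519), the second OE library (0.0714) or the third OE library (0.0547). Its copy Gm28438 moved the other way, from 14.5 ± 3.02 CPM with 4OHT alone to 22.9 ± 1.70 CPM in MU and 25.01 ± 0.56 CPM in OE, and gene and copy together were at 18.5 ± 3.46, 25.04 ± 1.56 and 27.8 ± 0.0804 CPM. Single libraries decided the calls for the ATP synthase subunits. mt-Atp6 was called in MU (1.20, adjusted p = 0.016) with 92.7 CPM in the third MU library beside 41.5 and 26.3 CPM in the others, and without that library the adjusted p was 0.16 (0.0616 without the third 4OHT library). mt-Atp8 was called in OE (1.20, adjusted p = 0.0427) with 41.5 CPM in the third OE library beside 10.04 and 11.8 CPM. Without it the adjusted p was 0.611, and without the second or the third 4OHT library or any single MU library it lay between 0.0538 and 0.137. mt-Co2, mt-Co3 and mt-Nd4l passed the test in neither comparison, with log2 fold changes between -0.25 and 0.52.

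**Figure D3:**
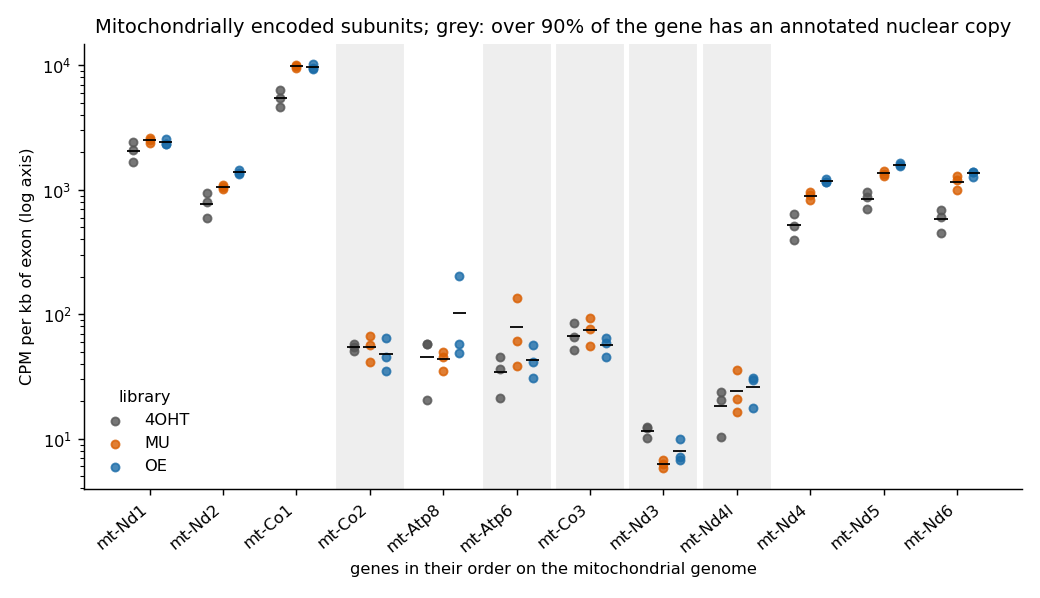
Level of each mtDNA gene in CPM per kb of exon (vertical log axis) in the 9 libraries, in the order of the genes on mtDNA; points are libraries, short lines group means, and grey marks genes with an annotated nuclear copy over 90% of their length. The group means of the genes from mt-Co2 to mt-Nd4l lie at 6.26 (mt-Nd3 in MU) to 103.4 CPM per kb (mt-Atp8 in OE), below those of the other 6 genes at 518.5 (mt-Nd4 with 4OHT alone) to 9848 CPM per kb (mt-Co1 in MU).

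Of the 94 genes that passed the filter on low counts, 25 were higher and 15 lower in MU than with 4OHT alone, and 29 were higher and 23 lower in OE. Over all 22452 genes tested, 29.5% were higher and 26.5% lower in MU, and 29.9% higher and 27.9% lower in OE, beside 26.6%, 16%, 30.9% and 24.5% of the subunit genes. With all 9 libraries, these counts are no result particular to them. The mtDNA genes stood at 7 higher and 1 lower of 12 in MU and 6 higher and 1 lower in OE, and without the third 4OHT library at 6 and 1 in MU and 5 and 1 in OE. Of the 82 nuclear genes, 18 were higher and 14 lower in MU and 23 higher and 22 lower in OE. The median log2 fold change of the nuclear genes was 0.0766 in MU and 0.0344 in OE, close to the medians over all genes (0.0435 and 0.0179), whereas that of the mtDNA genes was 0.43 and 0.67. Cox8b, the remaining gene, had at most 14 counts in any library and was not tested.

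These counts depended on single libraries. Without the third 4OHT library, 34 genes were lower in MU and 39 in OE, beside 5894 and 6294 of all 24352 genes then tested. Lower genes were then a larger share of the subunit genes than of all genes, unlike with all libraries. The nuclear medians then turned to -0.0547 and -0.126 and the mtDNA medians were 0.21 in MU and 0.45 in OE. No gene called with all libraries turned sign. Without the third OE library, the mtDNA median in OE was 0.35. Without the first 4OHT library, 39 genes were higher in MU and the nuclear medians were 0.13 and 0.10, and without the second they were 0.12 and 0.0883. Scaling by library totals alone, which moved the median of all genes to 0.156 in MU and 0.106 in OE, gave 44 higher and 9 lower genes in MU and 37 higher and 11 lower in OE. In OE, the number of lower genes was 15 without the first 4OHT library, 13 without the second, 13 without the first OE library and 14 without the second OE library.

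In complex I, the entry point for electrons from NADH, 4 of 35 nuclear genes (11.4%) were higher and 7 (20%) lower in MU. In OE, 6 (17.1%) were higher and 10 (28.6%) lower, and the medians in MU and OE were -6.72e-05 and -0.0459. The shares over all genes were 29.5% higher and 26.5% lower in MU and 29.9% and 27.9% in OE. Without the third 4OHT library, 4 of the 35 genes were higher and 17 lower in MU, and 5 higher and 19 lower in OE. Of all 24352 genes then tested, 6710 were higher and 5894 lower in MU, and 6790 higher and 6294 lower in OE. Core subunits that carry the electrons did not move one way: Ndufv1 fell, and Ndufs8, an iron-sulfur subunit, rose by 0.23 and 0.24 on the log2 scale (adjusted p = 0.00692 and 0.00479). Ndufv1, which holds the NADH binding site, was at 158.0, 169.0 and 163.6 CPM with 4OHT alone, 134.3, 135.3 and 132.7 CPM in MU and 138.7, 144.6 and 134.2 CPM in OE. It was lower without overlap, with log2 fold changes of -0.29 (adjusted p = 0.000122) and -0.23 (adjusted p = 0.000686). Ndufs1, which carries iron-sulfur clusters, had log2 fold changes of 0.02 and 0.09 and passed in neither comparison.

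Among nuclear genes of complex I of at least 1 CPM, the largest decreases were in Ndufa10 and Ndufs7 in MU and in Ndufa6 and Ndufa1 in OE. Ndufs7, a core subunit that holds an iron-sulfur cluster, was at 38.2, 37.7 and 32.4 CPM with 4OHT alone and between 25.4 and 27.2 CPM in all other libraries, and its log2 fold changes were -0.42 ± 0.0682 (adjusted p = 0.000107) and -0.47 ± 0.0689 (adjusted p = 4.29e-05). Ndufa10, an accessory subunit, changed by -0.43 and -0.39, again without overlap. Ndufa6 and Ndufa1, accessory subunits, changed by -0.52 (adjusted p = 0.00228) and -0.50 (adjusted p = 0.034) in OE, and Ndufa1 lost its call without the first or second 4OHT library or the first or the third OE library (adjusted p between 0.0946 and 0.178). In the other direction, Ndufb9, an accessory subunit of the membrane arm, was at 105.6, 103.0 and 79.4 CPM with 4OHT alone, 149.2, 146.3 and 142.4 CPM in MU and 143.7, 144.8 and 136.6 CPM in OE. Both construct groups lay above 4OHT alone, by 0.61 ± 0.0839 (adjusted p = 2.75e-05) and 0.56 ± 0.0841 (adjusted p = 5.26e-05). Ndufs6, an accessory subunit of the NADH dehydrogenase module, rose by 0.53 (adjusted p = 0.00639) and 0.50 (adjusted p = 0.0103; 0.0511 without the first OE library).

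In complex II, succinate dehydrogenase, all 4 subunits moved by less than 0.24 on the log2 scale. Sdhd, one of the membrane anchors, rose by 0.22 (adjusted p = 0.00268) and 0.21 (adjusted p = 0.0039), while Sdhc, the other anchor, did not pass (0.06 and 0.10). The catalytic subunits moved in opposite directions: Sdha, which holds the flavin, rose by 0.15 (adjusted p = 0.0106) and 0.14 (adjusted p = 0.0197), and Sdhb, the iron-sulfur subunit, fell (-0.21, adjusted p = 0.0166, and -0.24, adjusted p = 0.0075). These small changes were not stable. Sdha lost its call in MU without the third MU library (adjusted p = 0.0978), and in OE without the first 4OHT, second or the third MU or first OE library (adjusted p between 0.0516 and 0.0570). Sdhb lost it in MU without the second 4OHT or first MU library (0.0994 and 0.0614) and in OE without the second 4OHT or first OE library (0.0511 and 0.0763), and in both with scaling by library totals (0.262 and 0.0806).

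In complex III, the cytochrome bc1 complex, 3 of the 8 nuclear members (37.5%) fell in MU and 4 (50%) in OE by edgeR's test. Over all genes, 26.5% and 27.9% fell. The other members did not pass. Counting the called members, 4 of the 8 in MU and 5 in OE had an unadjusted p under 0.05 in either direction. Without the third 4OHT library, 5 fell in MU and 6 in OE, beside 5894 and 6294 of all 24352 genes then tested. The members that fell in both comparisons were Uqcrc1 and Uqcrc2, the core proteins, and Uqcrfs1, the Rieske iron-sulfur protein. Uqcrc1 was at 199.5, 196.6 and 206.6 CPM with 4OHT alone, 155.9, 152.5 and 154.8 CPM in MU and 155.5, 160.3 and 166.1 CPM in OE. The groups with a construct lay below 4OHT alone in every library, with log2 fold changes of -0.38 ± 0.0449 (adjusted p = 5.87e-06) and -0.32 ± 0.045 (adjusted p = 2.71e-05), and the third 4OHT library was the highest, unlike for most subunit genes. Uqcrfs1 changed by -0.29 and -0.26 (adjusted p = 0.00102 and 0.00281) and Uqcrc2 by -0.13 and -0.14 (adjusted p = 0.0364 and 0.0257). Uqcr10, a small subunit, was called in OE only (-0.36, adjusted p = 0.0349), and lost the call without the first or second 4OHT library or any single OE library (adjusted p between 0.0737 and 0.165). The small subunits Uqcrb and Uqcr11 were at 0.32 and 0.26 in MU and 0.23 and 0.10 in OE, and passed in neither. Cyc1 and mt-Cytb, subunit genes of complex III outside the pattern, moved the other way from the members that fell. Cyc1 rose by 0.25 and 0.22 (adjusted p = 0.000215 and 0.000675) and mt-Cytb by 0.74 and 0.92.

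In complex IV, cytochrome c oxidase, 8 of 19 nuclear genes tested (42.1%) were higher and 2 (10.5%) lower in MU. In OE, 7 (36.8%) were higher and 3 (15.8%) lower. The shares over all genes were 29.5% higher and 26.5% lower in MU and 29.9% and 27.9% in OE. Without the third 4OHT library, 7 of the 19 genes were higher and 5 lower in MU, and 7 higher and 6 lower in OE. Of all 24352 genes then tested, 6710 were higher and 5894 lower in MU, and 6790 higher and 6294 lower in OE. Cox4i1, the common isoform of the largest nuclear subunit, was at 327.6, 322.9 and 262.0 CPM with 4OHT alone and between 360.3 and 406.8 CPM in the other libraries, and rose by 0.35 in both comparisons (adjusted p = 0.00164 and 0.00146). Cox7c, a small subunit, rose by 0.47 and 0.40 (adjusted p = 0.0125 and 0.0267). Cox5a, another subunit without a tissue-restricted form here, was at 0.22 and 0.16 and did not pass (adjusted p = 0.0526 and 0.154).

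The isoform families of complex IV held the largest changes among the nuclear subunit genes. Cox6b2, Cox7b2 and Cox8c, the forms of COX6B, COX7B and COX8 known from testis, did not move together. Cox6b2 (chromosome 7, 4751792 to 4753094 in GRCm38) was at 24.3, 22.2 and 15.4 CPM with 4OHT alone, 10.1, 9.88 and 9.98 CPM in MU and 9.18, 7.43 and 6.71 CPM in OE. It fell in both comparisons without overlap, with log2 fold changes of -1.05 ± 0.149 (adjusted p = 3.5e-05) and -1.41 ± 0.153 (adjusted p = 2.28e-06), while its partner Cox6b1 was at -0.04 and -0.09. Cox7b2 (chromosome 5, 71442824 to 71548205) was at 8.82, 9.88 and 6.05 CPM with 4OHT alone, 21.9, 21.7 and 20 CPM in MU and 23.8, 22.8 and 21.95 CPM in OE. It rose by 1.36 ± 0.134 (adjusted p = 9.05e-07) and 1.47 ± 0.135 (adjusted p = 4.18e-07), whereas its partner Cox7b fell (-0.44, adjusted p = 0.00617, and -0.58, adjusted p = 0.00092). Per base of exon, Cox7b2 made up 22.5 ± 1.67% of the pair with 4OHT alone, 50.5 ± 0.487% in MU and 54.7 ± 1.19% in OE (SD, n = 3). Cox8c was at 1.83, 1.96 and 1.75 CPM with 4OHT alone and between 4.05 and 6.09 CPM in the other libraries, and rose by 1.35 and 1.43 (adjusted p = 4.95e-06 and 2.83e-06), while Cox8a was at -0.13 and -0.24 and did not pass.

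The forms known from heart and skeletal muscle were low. Cox6a2 had 17, 10 and 0 counts with 4OHT alone and 0.69 to 1.12 CPM in the libraries with a construct, and rose by 2.87 ± 0.631 (adjusted p = 0.00142) and 2.99 ± 0.638 (adjusted p = 0.00108), values that rest on few counts in the 4OHT libraries. Cox7a1 was at 2.41, 2.43 and 1.61 CPM with 4OHT alone and between 3.15 and 3.75 CPM in the others, and rose by 0.75 (adjusted p = 0.00174) and 0.65 (adjusted p = 0.005). Cox6a1, Cox7a2 and Cox7a2l, grouped with them by symbol, passed in neither comparison, at 0.02 to 0.27 on the log2 scale. Cox4i2, a form known from lung and low oxygen, was at 1.08 to 2.22 CPM and was called in MU only (0.62, adjusted p = 0.0188), a call lost without the second or the third 4OHT library or the third MU library (adjusted p between 0.0623 and 0.109).

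Ndufa4l2, a paralogue of Ndufa4 known as a gene induced by low oxygen (chromosome 10, 127514967 to 127517154), differed between all groups. It was at 2.28, 2.27 and 2.28 CPM with 4OHT alone, 13.4, 11.6 and 13.0 CPM in MU and 8.20, 8.65 and 10.04 CPM in OE, so that none of the 3 groups overlapped. The log2 fold changes were 2.47 ± 0.114 (adjusted p = 4.91e-10) and 1.98 ± 0.114 (adjusted p = 3.64e-09). Its partner Ndufa4 was at -0.29 in MU (adjusted p = 0.0552) and -0.32 in OE (adjusted p = 0.0355), a call lost without the first or second 4OHT library, the first MU library or any OE library (adjusted p between 0.0508 and 0.159).

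**Figure D4:**
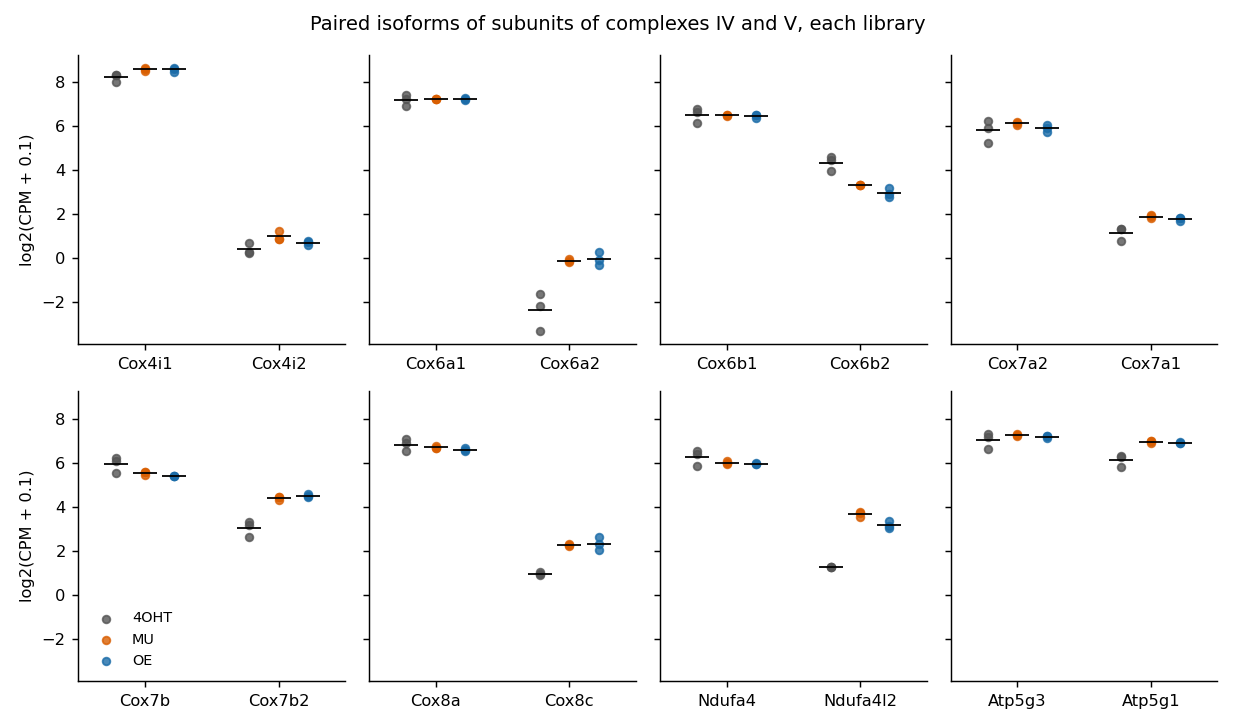
Levels of 8 pairs of isoforms or paralogues in each library, as log2(CPM + 0.1) on the vertical axis; the first gene of each panel is the more abundant form in CPM, points are libraries and short lines group means. Cox7b2, Cox8c, Cox6a2, Ndufa4l2 and Atp5g1 lie higher, and Cox6b2 lower, in MU and OE than with 4OHT alone.

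In complex V, ATP synthase, 4 of 16 nuclear genes (25%) were higher and 1 (6.25%) lower in MU, and 8 (50%) higher and 4 (25%) lower in OE. The shares over all genes were 29.5% higher and 26.5% lower in MU and 29.9% and 27.9% in OE. Without the third 4OHT library, 5 of the 16 genes were higher and 5 lower in MU and 6 higher and 6 lower in OE. Of all 24352 genes then tested, 6710 were higher and 5894 lower in MU, and 6790 higher and 6294 lower in OE. Of the catalytic core, the alpha and beta subunits were nearly level. Atp5b, the beta subunit and at 943.5 to 1057 CPM the most abundant nuclear subunit gene, was at 0.05 in MU (adjusted p = 0.29) and 0.10 in OE (adjusted p = 0.0426), and Atp5a1, the alpha subunit, at 0.07 and 0.14 (adjusted p = 0.199 and 0.0128). Atp5c1, the gamma subunit, rose without overlap by 0.35 in both comparisons (adjusted p = 4.08e-05 and 3.19e-05). Atp5d, the delta subunit, was at 0.006 and -0.08 and did not pass. The call for Atp5b in OE was lost in most alternatives, among them every omission of a single MU library, the first 4OHT library and the second or the third OE library (adjusted p between 0.0583 and 0.133), and that for Atp5a1 without the first 4OHT library (0.0539). The 3 genes of subunit c, whose ring turns in the membrane and which encode the same mature protein, moved apart. Atp5g1 was at 76.4, 79.5 and 57.0 CPM with 4OHT alone, 119.5, 128.7 and 129.0 CPM in MU and 121.6, 123.9 and 119.1 CPM in OE, and rose without overlap by 0.83 ± 0.0942 (adjusted p = 4.17e-06) and 0.78 ± 0.0944 (adjusted p = 7.26e-06). Atp5g2 fell (-0.33, adjusted p = 0.00256, and -0.43, adjusted p = 0.000346), from 56.5 to 71.0 CPM to between 47.7 and 55.7 CPM. Atp5g3 was at 0.20 and 0.12 and did not pass.

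Atp5e, the epsilon subunit, rose by 0.53 (adjusted p = 0.0111) and 0.49 (adjusted p = 0.0179; 0.0786 without the first and 0.0583 without the second OE library). Atp5k and Atp5l, small membrane subunits, were called lower in OE (-0.46, adjusted p = 0.0317, and -0.37, adjusted p = 0.02) and not in MU (-0.21 and -0.26). Leaving out the first or second 4OHT library or the first OE library ended both calls (adjusted p between 0.0805 and 0.19), as did the second or the third OE library for Atp5k (0.106 and 0.0627). Annotated pseudogene copies, by the limits used for mtDNA genes, were found for 11 nuclear genes (Ndufa12, Ndufb4, Ndufs3, Ndufs5, Uqcr11, Uqcrb, Cox7a2l, Atp5f1, Atp5g1, Atp5h and Atp5l), whose counts are uncertain to that extent. In 0 of them did the copies exceed the gene in CPM.

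**Figure D5:**
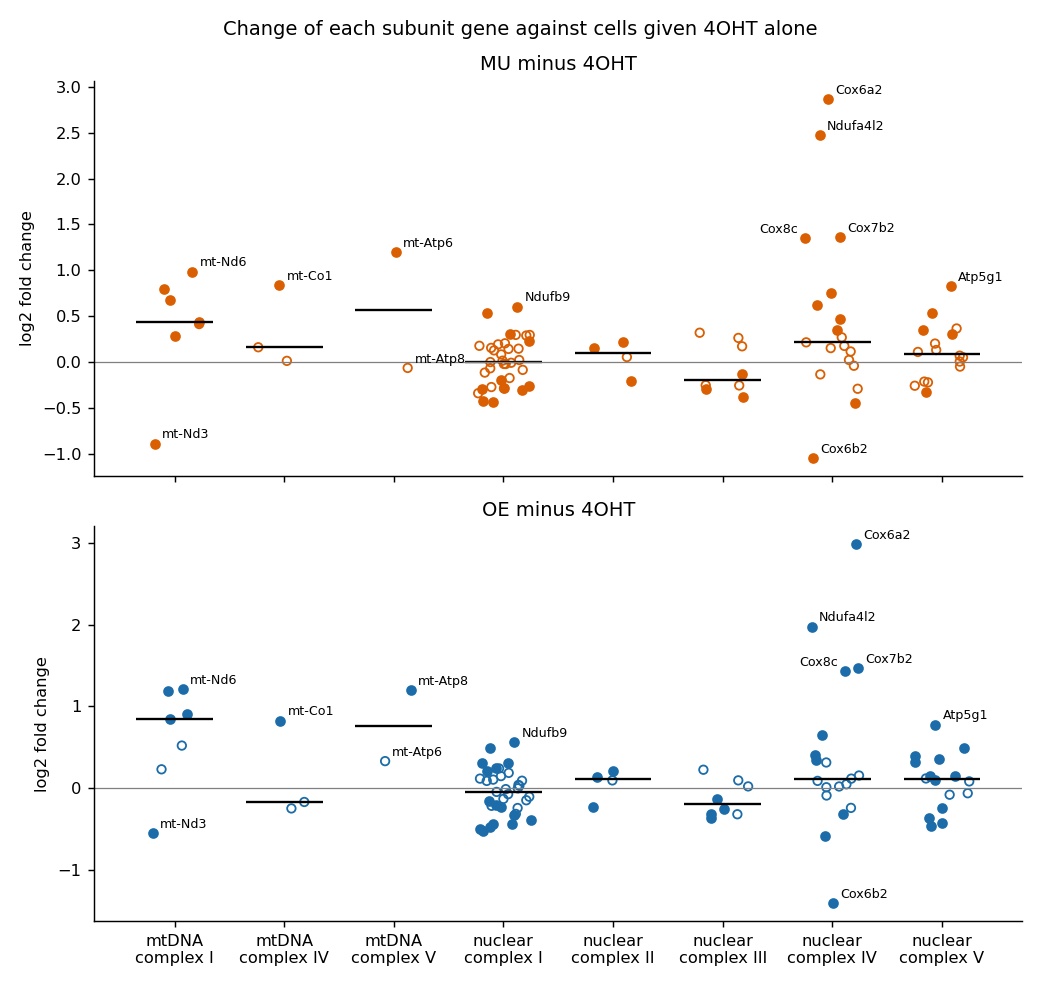
The log2 fold change (vertical axis) of each subunit gene in MU and in OE against 4OHT alone, by genome and complex; filled points had an adjusted p under 0.05, open points did not, and lines mark medians. The nuclear genes of complexes I, II, III and V lie between -0.52 and 0.83, and the nuclear genes beyond this range all belong to complex IV.

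The promoters of Cox6b2 and Cox7b2 are shown because these testis forms changed in opposite directions, and that of Cox6a1, which passed in neither comparison, because it holds a match to the core motif of NRF1, a factor known to act on genes of the respiratory chain. Each sequence gives the 250 bases before the RefSeq start in the GRCm38.p6 table, all on the minus strand, with the match in capitals: Cox6b2 at chr7:4753095-4753344, Cox7b2 at chr5:71548206-71548455 and Cox6a1 at chr5:115348959-115349208.
Cox6b2: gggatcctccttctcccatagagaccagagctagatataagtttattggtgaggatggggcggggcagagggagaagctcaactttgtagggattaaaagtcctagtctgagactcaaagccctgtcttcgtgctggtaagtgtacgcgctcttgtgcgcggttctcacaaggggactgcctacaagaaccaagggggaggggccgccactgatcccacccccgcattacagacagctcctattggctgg
Cox7b2: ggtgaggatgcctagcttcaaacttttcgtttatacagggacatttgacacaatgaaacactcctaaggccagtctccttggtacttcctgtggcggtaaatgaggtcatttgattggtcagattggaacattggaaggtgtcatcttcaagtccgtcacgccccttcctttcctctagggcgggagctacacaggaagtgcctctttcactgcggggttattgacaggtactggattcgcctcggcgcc
Cox6a1: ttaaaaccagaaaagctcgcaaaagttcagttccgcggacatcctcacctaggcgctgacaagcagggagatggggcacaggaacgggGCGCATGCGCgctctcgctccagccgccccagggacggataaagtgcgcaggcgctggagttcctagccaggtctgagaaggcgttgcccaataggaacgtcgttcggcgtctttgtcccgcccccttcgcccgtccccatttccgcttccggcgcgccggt

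In Cox6a1 the capitals are overlapping matches on both strands. The search used the letters GCATGCGC for NRF1, CCGGAAGT for GABPA and AAGATGGC for YY1 on both strands of windows from 250 bases before to 50 bases after the start; none of the 3 motifs contains another. Windows were found for 68 of the 83 nuclear genes, of which 10 (14.7%) held the NRF1 letters, 5 (7.35%) those of GABPA and 10 (14.7%) those of YY1. The shares over 27025 genes of the table were 3.05%, 4.31% and 3.19%. Of the 10 genes with the NRF1 letters, 1 was higher and 3 lower in MU and 1 higher and 6 lower in OE. Of the 57 tested genes without them, 11 were higher and 9 lower in MU and 16 higher and 14 lower in OE. The 10 genes with the YY1 letters stood at 2 higher and 2 lower in each comparison. The 5 with those of GABPA stood at 0 higher and 0 lower in MU and 1 higher and 1 lower in OE. Over all genes tested, 29.5% were higher and 26.5% lower in MU, and 29.9% and 27.9% in OE. A link between motif and direction was not tested. A match is a description and not a site.

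Between MU and OE, Ndufa4l2 was the only subunit gene called, higher in MU by 0.49 (adjusted p = 0.018), and no gene was lower, by edgeR's test over all 9 libraries (9 had an unadjusted p under 0.05 in either direction). Over all genes, 2.12% were higher and 1.06% lower in MU. DESeq2 gave the same counts of 1 and 0. The edgeR test shares 1 estimate of spread per gene with the 4OHT libraries, where the nuclear subunit genes varied most. Their median coefficient of variation was 18% there, 3.81% in MU and 3.97% in OE. Few calls in this test therefore do not show that the constructs were alike, and calls from only the libraries compared follow below. All MU libraries exceeded all OE libraries for Ndufa4l2, but without the first or the third MU library or the first or second OE library the adjusted p lay between 0.0936 and 0.109, and 0 genes were called higher. In this comparison 14 of the 15 feeder fibroblast markers were also higher in MU and 7 of the 12 macrophage markers lower, beside the difference in Prmt5 mRNA, and their part in the result was not tested.

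The genes of lowest unadjusted p after Ndufa4l2 were mtDNA genes. mt-Nd2 was at 1143, 1046 and 1090 CPM in MU and 1431, 1393 and 1511 CPM in OE, and its difference was -0.40 (adjusted p = 0.0874). mt-Nd4 was at -0.40 (adjusted p = 0.123) and mt-Nd5 at -0.23 (adjusted p = 0.221), likewise with every MU library below every OE library, while mt-Co1 was at 0.02 (adjusted p = 0.968) and mt-Atp8 at -1.26 (adjusted p = 0.233). In a model of only the 6 libraries compared, mt-Nd2 (adjusted p = 1.31e-05), mt-Nd4 (6.35e-05) and mt-Nd5 (0.00036) were called lower in MU. The difference of mt-Nd2 was again -0.40, with a standard error of 0.0357 in place of 0.114. In that model, 7 nuclear genes were called higher, among them Ndufa4l2 (0.49), Ndufa6 (0.25), Cox7a2 (0.23) and Uqcrh (0.15). Of all 23304 genes it tested, 822 were higher and 743 lower. Without the third 4OHT library, 2 genes were higher and 3 lower, and without the first 4OHT library 2 were lower.

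Genes that serve the respiratory chain without being subunits of the pattern were counted in lists. The lists were written with earlier results of these data known, and genes named from them were chosen after their values were seen. Their counts are therefore a description and no independent support. Of 33 genes that maintain, transcribe or translate mtDNA, 22 (66.7%) were higher and 3 (9.09%) lower in each comparison with 4OHT alone, with medians of 0.33 and 0.26. Over all genes, the shares were 29.5% and 26.5% in MU and 29.9% and 27.9% in OE. Tfam, which packages mtDNA and starts its transcription, rose from 42.6 CPM to 57.1 and 57.7 CPM (log2 fold changes 0.42 and 0.44), Polrmt, the mtDNA polymerase for RNA, by 0.33 and 0.38, and Twnk, the mtDNA helicase, by 0.46 and 0.73. Fastkd1, an RNA-binding protein of mitochondria, rose by 1.28 and 1.34. Top1mt, a topoisomerase, Mtpap, the poly(A) polymerase, and Gfm1, an elongation factor, were the genes that fell, with log2 fold changes of -0.42, -0.45 and -0.44 in MU and -0.47, -0.45 and -0.46 in OE. Twnk was also lower in MU than in OE (-0.27, adjusted p = 0.0047). Of 20 electron carriers and further subunits, 9 (45%) were higher and 1 (5%) lower in MU and 10 (50%) higher and 1 (5%) lower in OE. They include Cyct, the testis form of cytochrome c, which rose from 10.1 CPM to 31.1 and 31.5 CPM (1.62 and 1.64), and Etfb, a subunit of the electron transfer flavoprotein, which fell (-0.72 and -0.75).

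The other lists follow. Of 48 assembly factors, 17 (35.4%) were higher and 11 (22.9%) lower in MU and 15 (31.2%) higher and 14 (29.2%) lower in OE, near the shares over all genes. Those shares were 29.5% higher and 26.5% lower in MU and 29.9% and 27.9% in OE. Mitochondrial ribosomal proteins (78 genes) stood at 24 higher (30.8%) and 12 lower (15.4%) in MU and 23 higher (29.5%) and 14 lower (17.9%) in OE. Of 25 genes of cristae and protein import, 10 (40%) were higher and 6 (24%) lower in MU and 13 (52%) higher and 5 (20%) lower in OE. Of 19 genes of the tricarboxylic acid cycle, 2 (10.5%) were higher and 7 (36.8%) lower in MU and 5 (26.3%) higher and 6 (31.6%) lower in OE. Idh2, a mitochondrial isocitrate dehydrogenase, was at -0.81 and -0.69 and Pdha1, of the pyruvate dehydrogenase complex, at -0.57 and -0.56. Among 15 regulators of mitochondrial biogenesis, 5 (33.3%) rose and 5 (33.3%) fell in each comparison: Myc fell (-1.77 and -2.04), Ppargc1b, a coactivator, rose by 0.55 and 0.78, and Ppargc1a was at 0.197 to 0.216 CPM in the group means and did not pass.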

How the data were processed

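The members and gene lists were chosen with earlier results of these data known. The values the authors deposited are raw counts for each gene, in whole numbers; per the submitters' processing notes and the methods of the study, reads were trimmed (Trimmomatic 0.39), aligned to GRCm38 (HISAT2 2.2.1) and quantified (StringTie 2.2.1), while strand, reads with several alignments and the conversion to whole numbers are not given in the sources used here. From these counts, low genes were removed by group (filterByExpr, at least 10 counts and 15 in total); the rest were scaled by TMM and tested with edgeR 4.0.16 (R 4.3.3) in a quasi-likelihood model of all 9 libraries with the group as factor, with Benjamini-Hochberg adjustment over 22452 genes and a threshold of 0.05. Totals were 78751996 to 365719548 counts, and floors of 3 counts cover counting error only. Coordinates and exonic length, the union of exons, came from GENCODE vM21, in which all 95 members were found. Copies were searched with blastn 2.17.0 among 13607 pseudogene transcripts. Same-numbered libraries did not deviate together, so no block was used. Alternatives were DESeq2 1.42.0, other scalings and filters, 6 libraries only, a replicate block, counts divided by 4, removal of mtDNA genes or of a trend on length, and omission of each library. The edgeR step was tested on simulated data. Genes named are all mtDNA members, 11 core subunits (1 is not reported here), the isoform families, the 2 highest and 2 lowest nuclear genes of each complex with at least 1 CPM against 4OHT, and, between MU and OE, the called genes or the 5 of lowest unadjusted p; other genes named were chosen after their values were seen. EtOH-treated cells were not analysed here.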

Additional observations from a re-analysis of the deposited data

Results flagged for a closer look

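The test between the constructs called Ndufa4l2 higher in MU than in OE, by 0.49 on the log2 scale (edgeR, adjusted p = 0.018). The call was lost without the first or the third MU library or the first or second OE library (adjusted p between 0.0936 and 0.109) and with the length trend removed (0.0577). Feeder fibroblast markers (14 of 15 higher in MU), macrophage markers (7 of 12 lower) and Prmt5 mRNA (-2.88) moved with the same comparison, and their part was not tested.

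Signals also appeared in genes outside the members. mt-Cytb, the mtDNA subunit of complex III that the symbol pattern does not match, averaged 2204 CPM in the 3 libraries of 4OHT alone (SD 389), 3672 CPM (SD 132) in MU and 4181 CPM (SD 170) in OE, with log2 fold changes of 0.74 in MU and 0.92 in OE (adjusted p = 1.05e-05 and 1.05e-06). Gm28438, the nuclear copy of mt-Nd3, was higher by 0.66 in MU and 0.79 in OE (adjusted p = 0.000333 and 6.96e-05).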

How the results depend on the processing

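Over single omissions of a library, between 21 and 39 genes were higher and between 12 and 34 lower in MU than with 4OHT alone, between 22 and 31 higher and between 13 and 39 lower in OE, and between 0 and 2 higher and 0 and 3 lower in MU than in OE. These extremes came without the first 4OHT library for higher genes in MU, without the third 4OHT library for lower genes in both, and without the second 4OHT or first OE library for the fewest lower genes in OE. Without the third 4OHT library, 5894 and 6294 of all 24352 genes tested were lower in MU and OE. Scaling by library totals without TMM gave 44 higher and 9 lower genes in MU and 11 lower in OE, and shifted the median of all genes to 0.156 and 0.106. Between MU and OE, the 6 libraries compared gave 7 higher and 3 lower, and removal of the length trend 0 higher and 3 lower. Over all genes, that comparison gave 475 higher and 237 lower, 822 and 743 with the 6 libraries, 713 and 427 by DESeq2, and 256 to 686 higher and 144 to 413 lower with 1 library left out. With a replicate block, 31 genes were higher and 16 lower in MU and 27 and 25 in OE; the libraries share only their number, and the block ended no call of a named gene except those of Atp5b (adjusted p = 0.0579) and mt-Atp8 (0.13) in OE. No recomputed log2 fold change of a called gene named here turned sign, and of the alternative values 1265 kept their side of the threshold, 90 lost and 11 gained a call; where not said otherwise the cause was not tested. Genes of few counts, such as Cox6a2, are limited by depth.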
